A study of Mus musculus with 20 samples.

Results

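The genes Ccl3, Ccl4, Ccl5, Ccl6, and Ccl9 encode CC chemokines, small secreted proteins that draw leukocytes into tissue, and they lie together in the second CC chemokine cluster of mouse chromosome 11. They were taken by gene name from the noncontrol probes of the arrays, and each of the 5 genes had 1 probe, among 55681 noncontrol probes in all. CC chemokines bind receptors on the leukocyte surface that signal through G proteins, and cells migrate up the gradient. Ccl3, Ccl4, and Ccl5 (MIP-1α, MIP-1β, and RANTES) draw monocytes, macrophages, and activated T cells, and Ccl3 and Ccl5 bind Ccr1, a receptor of myeloid cells. Ccl6 and Ccl9 are chemokines of rodent myeloid cells, and Ccr1 is a receptor for both.

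The arrays measured RNA from diaphragms of 20 female C57Bl/6 mice, which were injected into the pleural cavity at 8 weeks of age and examined 12 weeks later. All 5 groups held 4 mice and received 100 μL of saline with 0.5% BSA, which was all that the control group received. The SFA and LFA groups were given 25 μg of short or long amosite asbestos per mouse, and the NTS and NTL groups were given 5 μg of short or long carbon nanotubes (SNT and LNT in the study's text, where the control is VC). Per the study's methods, both lengths of asbestos came from 1 batch, whereas the short nanotubes were a commercial product and the long ones came from an academic laboratory, so that length and source cannot be told apart for nanotubes. The doses of asbestos and nanotubes also differed, and the RNA came from a frozen part of the whole diaphragm, in which more cells of a type and more RNA per cell cannot be told apart.

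The 5 probes, each of 60 bases, lay in the order Ccl5, Ccl9, Ccl6, Ccl3, Ccl4 along the chromosome, and the first and last were 138.756 kb apart. The Ccl5 probe was placed by the files at chr11:83339296-83339355 (mm9), the Ccl9 probe at chr11:83388223-83388282, the Ccl6 probe at chr11:83401997-83402056, the Ccl3 probe at chr11:83461358-83461417, and the Ccl4 probe at chr11:83478052-83478111. Ccl4 lies on the plus strand and the other 4 genes on the minus strand. The first 30 bases of each probe are shown 5′ to 3′ because every value that follows is the signal of 1 such sequence, and capitals mark the letters ATTTA, which this stretch holds for Ccl4 alone.
Ccl5: tctcagctgctccgaggctctgcacagcaa
Ccl9: caactaggatgaaataaattctgccttagc
Ccl6: aatgtgtctggttctgatacaagcttaagc
Ccl3: catgaactgacaaatgtacaatagatgctt
Ccl4: tattATTTAtgttttagttataggacgcgt
Placed end to end, any 2 of the 5 probes matched at 11 to 23 of their 60 bases, and the longest run that any 2 shared was 8 bases, between Ccl6 and Ccl9. The probes therefore had little sequence in common with each other, and no other probe of these genes was on the array.

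RefSeq windows of the promoter (GRCm38.p6) were available for Ccl9, Ccl6, and Ccl3, which rose together in the long fiber groups, and all 3 lie on the minus strand. The 250 bases before the start site are shown 5′ to 3′, from chr11:83578637-83578886 for Ccl9, chr11:83593088-83593337 for Ccl6, and chr11:83649379-83649628 for Ccl3. Capitals mark matches, on either strand, to GAGGAA or to AGGAAG (purine-rich letters of the kind that Ets family factors such as PU.1 bind, which can overlap each other), to the TATA box letters TATAAA, to TGANTCA (the AP-1 type), and to the kappaB consensus.
Ccl9: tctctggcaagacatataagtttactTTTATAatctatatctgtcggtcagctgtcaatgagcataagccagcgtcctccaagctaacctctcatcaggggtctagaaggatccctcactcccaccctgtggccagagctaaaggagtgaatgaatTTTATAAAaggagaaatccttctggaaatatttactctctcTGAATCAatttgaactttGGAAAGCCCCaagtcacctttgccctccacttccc
Ccl6: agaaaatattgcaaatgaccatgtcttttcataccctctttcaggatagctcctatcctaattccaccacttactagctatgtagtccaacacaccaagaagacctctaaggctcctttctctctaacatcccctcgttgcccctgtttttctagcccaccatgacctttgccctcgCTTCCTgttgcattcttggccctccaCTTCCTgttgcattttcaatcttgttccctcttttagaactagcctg
Ccl3: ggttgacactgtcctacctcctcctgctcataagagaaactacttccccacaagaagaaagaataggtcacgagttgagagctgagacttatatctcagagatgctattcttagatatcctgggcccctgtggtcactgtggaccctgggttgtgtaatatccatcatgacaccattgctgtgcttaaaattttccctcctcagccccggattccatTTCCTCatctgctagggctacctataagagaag
Ccl9 held matches to TATAAA (a pair of them overlapping on opposite strands), TGANTCA, and the kappaB consensus, Ccl6 held AGGAAG at 2 places, and Ccl3 held GAGGAA once. Of 32851 windows of this length, 12.4% held TATAAA, 6.7% held TGANTCA, 7.3% held the kappaB consensus, 29.5% held AGGAAG, and 23.3% held GAGGAA. None of the 5 letter strings searched was found in more than 1 of these 3 promoters. The GAGGAA match of Ccl3 and the AGGAAG matches of Ccl6 do have the letters AGGAA in common. The longest run that Ccl6 and Ccl9 shared was 13 bases, gccctccacttcc, which 5 of the 32851 windows held on either strand, those of Ccl6 and Ccl9 included. Around their start sites (from −45 to 15 in Ccl6 and from −11 to 49 in Ccl9), 41 of 60 bases were the same (68.3%), against 28 of 60 for the best stretch of Ccl3 with either gene.

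Signals are given as the log2 intensity of the probe minus the 75th percentile of its array, so a negative value is a probe dimmer than that percentile. The percentile itself ran from 292 to 991 between arrays, and the scanner software marked 53.0% to 68.1% of noncontrol spots as well above background. The 11 skeletal muscle markers had a mean log2 signal of 6.72 to 8.40 on the 20 arrays, so muscle RNA was abundant on each of them. The 10 liver markers, which diaphragm should lack, had a mean that ran from −1.95 to 8.94, with group ranges that overlapped. They were above 4 on 9 arrays (1 control, 2 SFA, 2 LFA, 2 NTS, and 2 NTL), and counts without these 9 arrays are given beside the results they touch. The arrays were hybridized on 3 slides that did not hold each group equally. Calls came from a limma model of all 20 arrays and 36911 probes, and needed both a 2-fold difference and a p below 0.05 after Benjamini-Hochberg adjustment over those probes.

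Ccl3 rose in both long fiber groups from a control level that was mostly not above background. Its log2 signal was −5.56, −3.79, −4.86, and −6.34 in the control mice, −2.0, −1.42, −2.67, and −0.49 in LFA, and −2.16, −1.27, −0.26, and −1.20 in NTL. In the short fiber groups it was −3.82, −4.50, −4.13, and −4.28 in SFA and −4.03, −4.61, −4.39, and −4.58 in NTS. Every LFA and NTL array lay above every array of the other 3 groups, and the short fiber arrays sat inside the control range. Ccl3 was 11.2-fold higher in LFA than in control (log2 change 3.49 ± 0.50 SE, limma adjusted p = 0.00102) and 15.1-fold higher in NTL (3.91 ± 0.50, adjusted p = 0.000189). The control level was poorly measured, since Ccl3 was well above background on 1 of 4 control arrays, on 3 of 4 in SFA and in NTS, and on all 8 long fiber arrays. With normexp background correction, which adds an offset, the changes shrank to 1.47 in LFA and 1.81 in NTL and were still called, below those of Ccl6 and Ccl9. Without the 9 arrays rich in liver transcripts Ccl3 had a change of 4.04 in LFA (adjusted p = 0.0377) and 3.29 in NTL (adjusted p = 0.0653, not called).

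Ccl4 also rose in both long fiber groups. Its log2 signal was −4.89, −2.55, −3.53, and −4.54 in the control mice, −1.35, −0.39, −1.25, and 0.82 in LFA, and −1.11, −0.65, −0.14, and −0.75 in NTL. SFA gave −2.68, −3.44, −2.57, and −3.62, and NTS gave −2.65, −4.28, −2.33, and −2.89. The long fiber arrays again lay above all others, and LFA replicate 4 was the highest of the 20 arrays. The change against control was 3.34 ± 0.55 in LFA (10.1-fold, limma adjusted p = 0.00292) and 3.21 ± 0.55 in NTL (9.27-fold, adjusted p = 0.00173). Ccl4 was well above background on all 20 arrays. The normexp correction gave 1.87 in LFA and 1.75 in NTL, and without the 9 arrays rich in liver transcripts the adjusted p was 0.0532 in LFA and 0.121 in NTL at changes of 3.76 and 2.66.

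Ccl6 was well measured in every group, with an SD of 0.27 to 0.51. Its log2 signal was 3.56, 4.70, 3.79, and 3.75 in the control mice, 6.43, 6.58, 6.93, and 7.41 in LFA, and 6.56, 7.36, 6.87, and 6.46 in NTL. It was 5.12, 3.96, 4.41, and 4.22 in SFA and 4.05, 3.63, 3.91, and 3.45 in NTS. A gap separated the lowest long fiber array, LFA replicate 1, from the highest of the other 12, SFA replicate 1. Ccl6 rose by 2.89 ± 0.32 in LFA (7.40-fold, limma adjusted p = 0.000113) and by 2.86 ± 0.32 in NTL (7.28-fold, adjusted p = 5.56e-05), and no alternative ended either call.

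Ccl9 rose in both long fiber groups as well. Its log2 signal was 2.49, 2.04, 2.89, and 2.59 in the control mice, 4.80, 5.70, 4.04, and 5.69 in LFA, and 5.23, 4.65, 5.64, and 4.77 in NTL. It was 2.71, 3.20, 2.61, and 3.11 in SFA and 2.76, 2.48, 3.95, and 2.97 in NTS. The long fiber arrays were the 8 highest, but LFA replicate 3 at 4.04 was close to NTS replicate 3 at 3.95. Ccl9 was 5.87-fold higher in LFA (2.55 ± 0.38, limma adjusted p = 0.00128) and 5.94-fold higher in NTL (2.57 ± 0.38, adjusted p = 0.000538), again under every alternative.

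Ccl5, which T cells and NK cells make as well as macrophages, did not pass the test in any comparison. Its log2 signal was 1.13, 2.89, 2.91, and 0.89 in the control mice, 1.80, 2.81, 3.78, and 2.88 in LFA, and 2.91, 3.60, 2.82, and 3.19 in NTL. It was 3.07, 1.78, 3.05, and 2.13 in SFA and 2.23, 0.83, 2.42, and 2.61 in NTS. The control mice fell into a low pair and a high pair, and the groups overlapped in every comparison with control. The difference from control was 0.86 ± 0.53 in LFA (95% interval −0.24 to 1.97, limma adjusted p = 0.322) and 1.18 ± 0.53 in NTL (0.07 to 2.28, unadjusted p = 0.0383, adjusted p = 0.183). These intervals include 2-fold differences, so the data do not show that Ccl5 was at the same level.

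Both long fiber groups had the highest means for each gene, and the order within and below them varied. From high to low it was NTL, LFA, SFA, NTS, control for Ccl3, LFA, NTL, NTS, SFA, control for Ccl4, LFA, NTL, SFA, control, NTS for Ccl6, and NTL, LFA, NTS, SFA, control for Ccl9. In these 4 genes the only neighbors whose arrays did not overlap were the lower of the long fiber groups and the group next below it. For Ccl5 the order was NTL, LFA, SFA, NTS, control, and all neighbors overlapped.

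**Figure D1:**
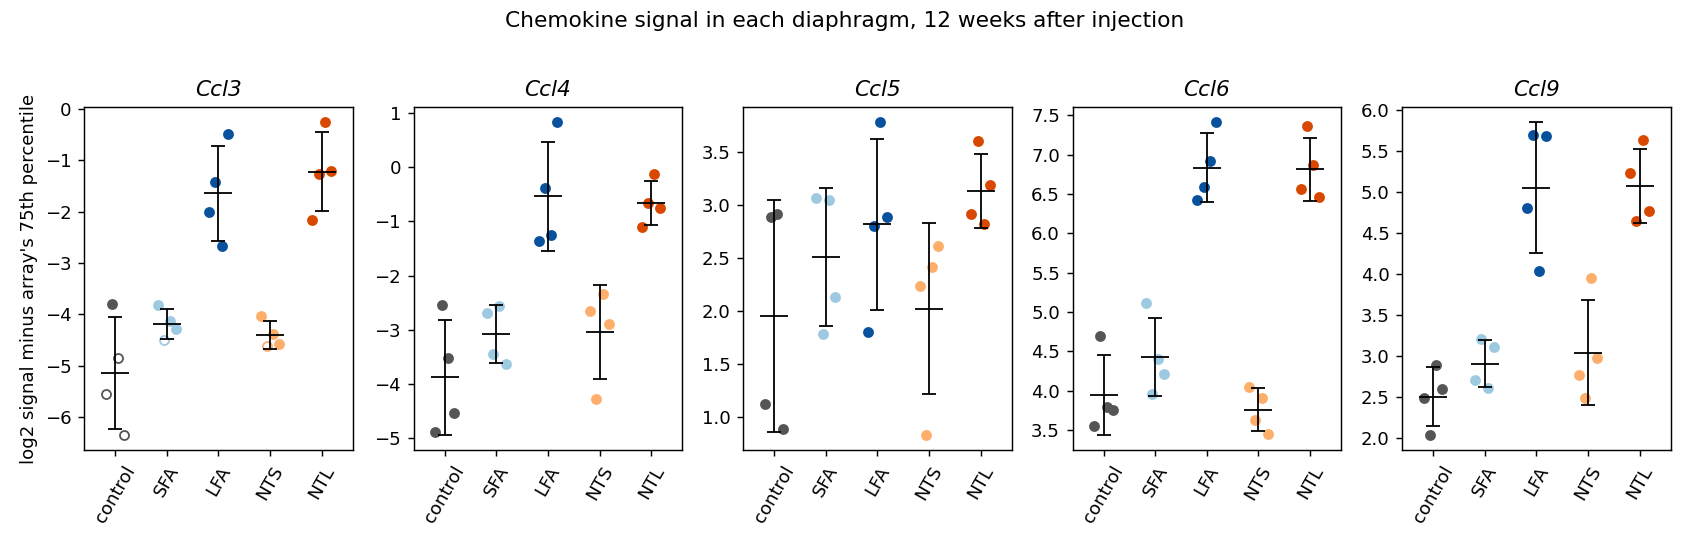
The log2 signal of each chemokine, relative to the 75th percentile of the array, is plotted for the 4 arrays of each group, with the mean and SD in black and open circles for arrays where the probe was not well above background. For Ccl3, Ccl4, Ccl6, and Ccl9 the LFA and NTL points lie above all others, whereas the Ccl5 points of LFA and NTL overlap those of the control.

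Of the 5 genes, 4 were called higher in LFA than in control, where 2.21% of all tested probes were called higher, and the same 4 in NTL, where 3.64% were. Over the 5 genes the median log2 change was 2.89 in LFA and 2.86 in NTL, beside a median over all tested probes of −0.28 and −0.25. The arrays of these 4 genes did not overlap with the control arrays, as was so, with the fiber arrays higher, for 4.56% of all probes in LFA and 6.36% in NTL. Ccl6 ranked 347th from the highest change among 36911 probes in LFA and 396th in NTL, and Ccl5 ranked 3154th and 2194th. In the order of the probes along the chromosome (Ccl5, Ccl9, Ccl6, Ccl3, Ccl4) the changes in LFA were 0.86, 2.55, 2.89, 3.49, and 3.34. With normexp correction they were 0.83, 2.59, 2.91, 1.47, and 1.87, so Ccl5 changed least under both, and the order of the other 4 depended on the correction. Without the 9 arrays rich in liver transcripts, 3 genes stayed called in LFA and 2 (Ccl6 and Ccl9) in NTL, all in the same direction.

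Short fibers gave no called change. None of the 5 genes was called in SFA or NTS against control, where limma called 0% of all probes (2.31% and 3.52% had an unadjusted p under 0.05). None of the 5 had an unadjusted p under 0.05 in either group. The largest differences from control were in Ccl3 in SFA (0.95 ± 0.50, 95% interval −0.10 to 2.01) and in Ccl4 in NTS (0.84 ± 0.55, −0.31 to 1.99). Ccl6 differed by 0.48 (−0.19 to 1.14) in SFA and by −0.19 (−0.85 to 0.48) in NTS, so a rise of the size seen with long fibers lies outside both intervals.

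Long fibers were also compared with short fibers of the same material at equal mass per mouse. For nanotubes, length and source cannot be told apart in this comparison. Of the 5 genes, 4 were called higher in LFA than in SFA, against 1.03% of all probes, and 4 in NTL than in NTS, against 4.92%. For asbestos the log2 changes were 2.54 ± 0.50 for Ccl3 (limma adjusted p = 0.016), 2.54 ± 0.55 for Ccl4 (0.0258), 2.41 ± 0.32 for Ccl6 (0.000738), and 2.15 ± 0.38 for Ccl9 (0.00763). For nanotubes they were 3.18 ± 0.50 for Ccl3 (adjusted p = 0.000667), 2.37 ± 0.55 for Ccl4 (0.0112), 3.05 ± 0.32 for Ccl6 (1.68e-05), and 2.03 ± 0.38 for Ccl9 (0.00252). In all 8 of these the long fiber arrays lay above the short fiber arrays, as did 3.14% of all probes for asbestos and 7.66% for nanotubes. Ccl5 differed by 0.31 ± 0.53 between LFA and SFA (adjusted p = 0.881). It differed by 1.11 ± 0.53 between NTL and NTS, where every NTL array lay above every NTS array but the adjusted p was 0.2.

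The asbestos calls were the less firm of the 2 sets. The count fell from 4 to 1 (Ccl6) when only LFA and SFA were fitted, to 2 without LFA replicate 2, LFA replicate 4, or SFA replicate 2, and to 0 without the 9 arrays rich in liver transcripts, and for nanotubes it fell to 2 without those arrays. The changes without these arrays were 3.09 for Ccl3, 3.37 for Ccl4, 2.33 for Ccl6, and 2.78 for Ccl9 between LFA and SFA, and 2.60 for Ccl3 and 2.58 for Ccl4, the lost calls, between NTL and NTS, with 2 arrays left in each group. With normexp correction Ccl3 differed by 1.25 between LFA and SFA and was not called (adjusted p = 0.0839).

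**Figure D2:**
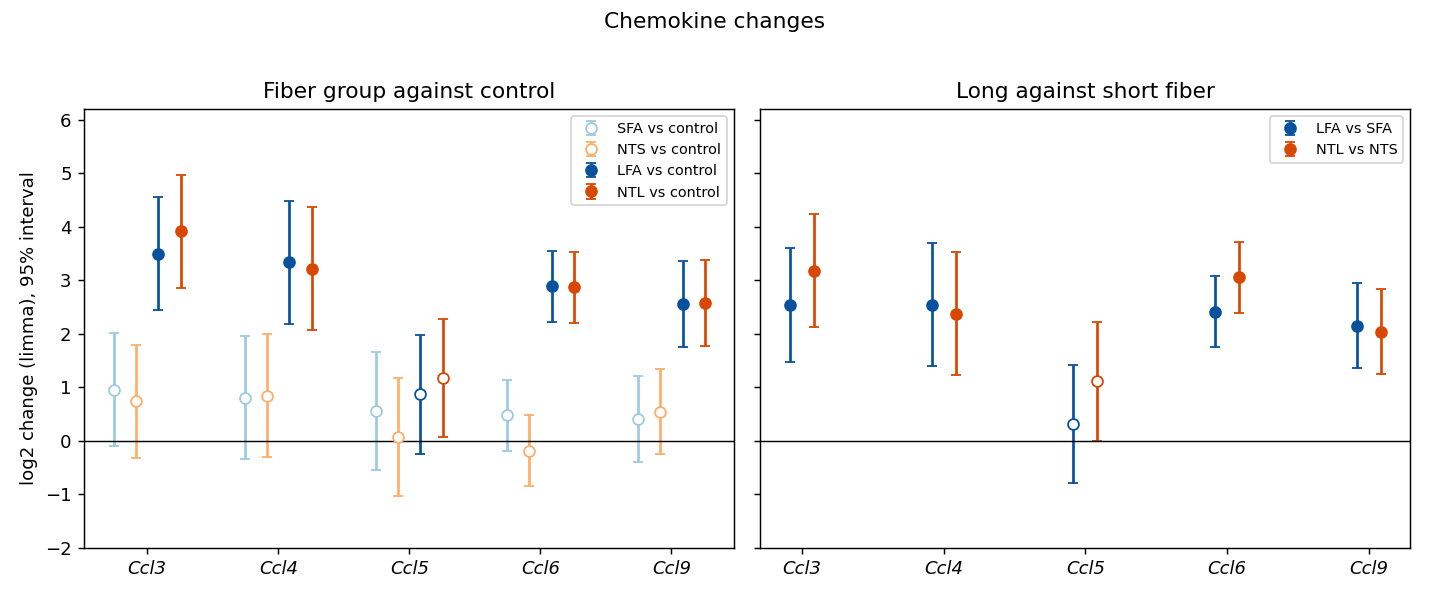
The limma log2 change and its 95% interval are plotted for each chemokine, for each fiber group against control (left) and for long against short fibers (right), with filled points where the change was called. The intervals of Ccl3, Ccl4, Ccl6, and Ccl9 in LFA and NTL lie above 1 in both panels, and those of SFA and NTS include 0.

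Between the long fibers, which differed in dose, the values stood side by side. The mean log2 signal in LFA and in NTL was −1.65 ± 0.93 and −1.22 ± 0.77 for Ccl3 (SD, n = 4), −0.54 ± 1.01 and −0.66 ± 0.40 for Ccl4, 2.82 ± 0.81 and 3.13 ± 0.35 for Ccl5, 6.84 ± 0.44 and 6.81 ± 0.40 for Ccl6, and 5.06 ± 0.80 and 5.07 ± 0.45 for Ccl9. None of the 5 was called between these groups, where limma called 0% of all probes (1.54% had an unadjusted p under 0.05, and none of the 5 did). None was called between NTS and SFA either (0% of all probes, 5.83% and none of the 5 at an unadjusted p under 0.05), where Ccl6 was nearest with a difference of −0.66 (95% interval −1.33 to 0.00, unadjusted p = 0.0501). The long minus short difference of nanotubes, less that of asbestos, is named the difference of length effects, although nanotube length and source go together. It ran from −0.16 ± 0.77 for Ccl4 to 0.80 ± 0.74 for Ccl5. None of the 5 was called (0% of all probes, 3.46% at an unadjusted p under 0.05, none of the 5). The interval of Ccl3 ran from −0.86 to 2.14, so equal long minus short differences were not shown.

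Since the difference of 2 probes on an array does not depend on its scaling, the 10 pairs of genes were also compared within arrays. Relative to control, Ccl3 changed by more than Ccl5, by 2.63 in LFA and 2.74 in NTL, as did Ccl4, by 2.47 and 2.04. The change of Ccl5 minus that of Ccl6 was −2.02 and −1.69. In these 6 comparisons the 4 long fiber arrays and the 4 control arrays did not overlap, which gives the smallest p that 4 against 4 arrays allow (0.0286, exact permutation test, two-sided). Adjusted over the 20 tests the p was 0.0953, so no pair passed. Any pair could pass only if most of the 20 tests reached that smallest p, so this outcome does not show equal changes. The changes of Ccl3 and Ccl4 differed by 0.16 in LFA (exact permutation p = 0.6) and 0.70 in NTL (p = 0.0571), and those of Ccl6 and Ccl9 by 0.33 (p = 0.571) and 0.29 (p = 0.457). Differences within arrays do depend on background correction. With normexp Ccl3 changed by 1.47 in LFA and 1.81 in NTL, and Ccl4 by 1.87 and 1.75, so their gaps to Ccl5 were smaller. Under that correction 6 of the 20 tests again had an unadjusted exact permutation p below 0.05.

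Within groups Ccl3, Ccl4, Ccl5, and Ccl6 correlated with each other, and Ccl9 less so. After the group mean was subtracted from each of the 20 arrays, the Pearson correlation was 0.81 between Ccl3 and Ccl4, 0.67 between Ccl4 and Ccl6, 0.65 between Ccl4 and Ccl5, 0.60 between Ccl3 and Ccl6, 0.55 between Ccl5 and Ccl6, and 0.37 between Ccl3 and Ccl5. With Ccl9 it was 0.36 for Ccl4, 0.27 for Ccl3, −0.14 for Ccl5, and −0.14 for Ccl6. Without that step the 10 pairs ran from 0.41 (Ccl5 and Ccl9) to 0.96 (Ccl3 and Ccl4), values that contain the group differences. These are descriptions over arrays that share groups and slides.

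The 3 genes whose pattern was most like each chemokine over the 20 arrays were found among 17310 genes. For Ccl5 they were Lck, the T cell kinase (r = 0.97), Cd3d, a chain of the T cell receptor complex (0.96), and Txk, a kinase of T cells (0.96), and with group means removed these were 0.97, 0.98, and 0.95. For Ccl3 they were Tlr13, an endosomal receptor for bacterial RNA (0.96), Cd68, a macrophage lysosomal protein (0.96), and Ctss, a cathepsin of antigen-presenting cells (0.96), which fell to 0.82, 0.76, and 0.76 with group means removed. For Ccl4 they were Sirpb1b, Sirpb1a, and Bcl2a1d (0.96, 0.96, and 0.95), for Ccl6 Alox5, the leukotriene-forming lipoxygenase, Clec4d, and Adam8 (0.98, 0.97, and 0.97), and for Ccl9 Slc15a3, Cd300lb, and Slc11a1, a metal transporter of phagosomes (0.96, 0.94, and 0.94). Probes of Sirpb1a and Sirpb1b may share targets, and Bcl2a1d has close copies, so these names are uncertain.

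Cell markers moved along with the chemokines. Of 15 macrophage markers, 10 were called higher in LFA and 11 in NTL, with a median change of 1.88 and 2.26. Among all tested probes 2.21% were called higher in LFA and 3.64% in NTL, the scale for the counts of this and the later lists. Their mean log2 signal ran from 1.15 to 1.32 in control, 1.02 to 1.47 in SFA, 1.07 to 1.44 in NTS, 2.21 to 3.24 in LFA, and 3.02 to 3.19 in NTL. All 15 were well above background on at least 4 arrays, which is the filter for testing and which long fiber arrays alone could meet. Msr1, a scavenger receptor, changed by 3.13 in LFA and 3.01 in NTL, Fcgr1, an IgG receptor, by 2.58 and 2.84, and Itgam had −0.80 and −0.60 and was not called. Itgam had the lowest mean of these changes, but the lowest change in LFA alone was −1.10, in another marker. No marker of this list was called lower in LFA or NTL. Across the 20 arrays the macrophage mean followed Ccl9 (r = 0.95), Ccl6 (0.93), Ccl3 (0.92), and Ccl4 (0.89) more closely than Ccl5 (0.50), and within groups r was 0.71, 0.15, 0.43, 0.49, and 0.03. Their part in the chemokine changes was not tested.

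Set against these markers on the same array, Ccl3 rose by a further 1.95 in LFA and 2.02 in NTL, Ccl4 by 1.80 and 1.32, Ccl6 by 1.35 and 0.97, and Ccl9 by 1.01 and 0.68. Ccl5 changed less than the markers, by −0.68 and −0.72. Ccl3 was well above background on 1 of 4 control arrays. With normexp correction its change against control was 1.47 in LFA and 1.81 in NTL, and that of Ccl4 was 1.87 and 1.75. The further rise of Ccl3 and Ccl4 beyond the markers may thus be smaller under that correction. For Ccl3 and Ccl9 in LFA no LFA array overlapped the control (exact permutation p = 0.0286, two-sided, the smallest possible), but over the 12 tests the adjusted p was 0.129, and no test passed. Here too most of the 12 tests had to reach the smallest p for any to pass.

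**Figure D3:**
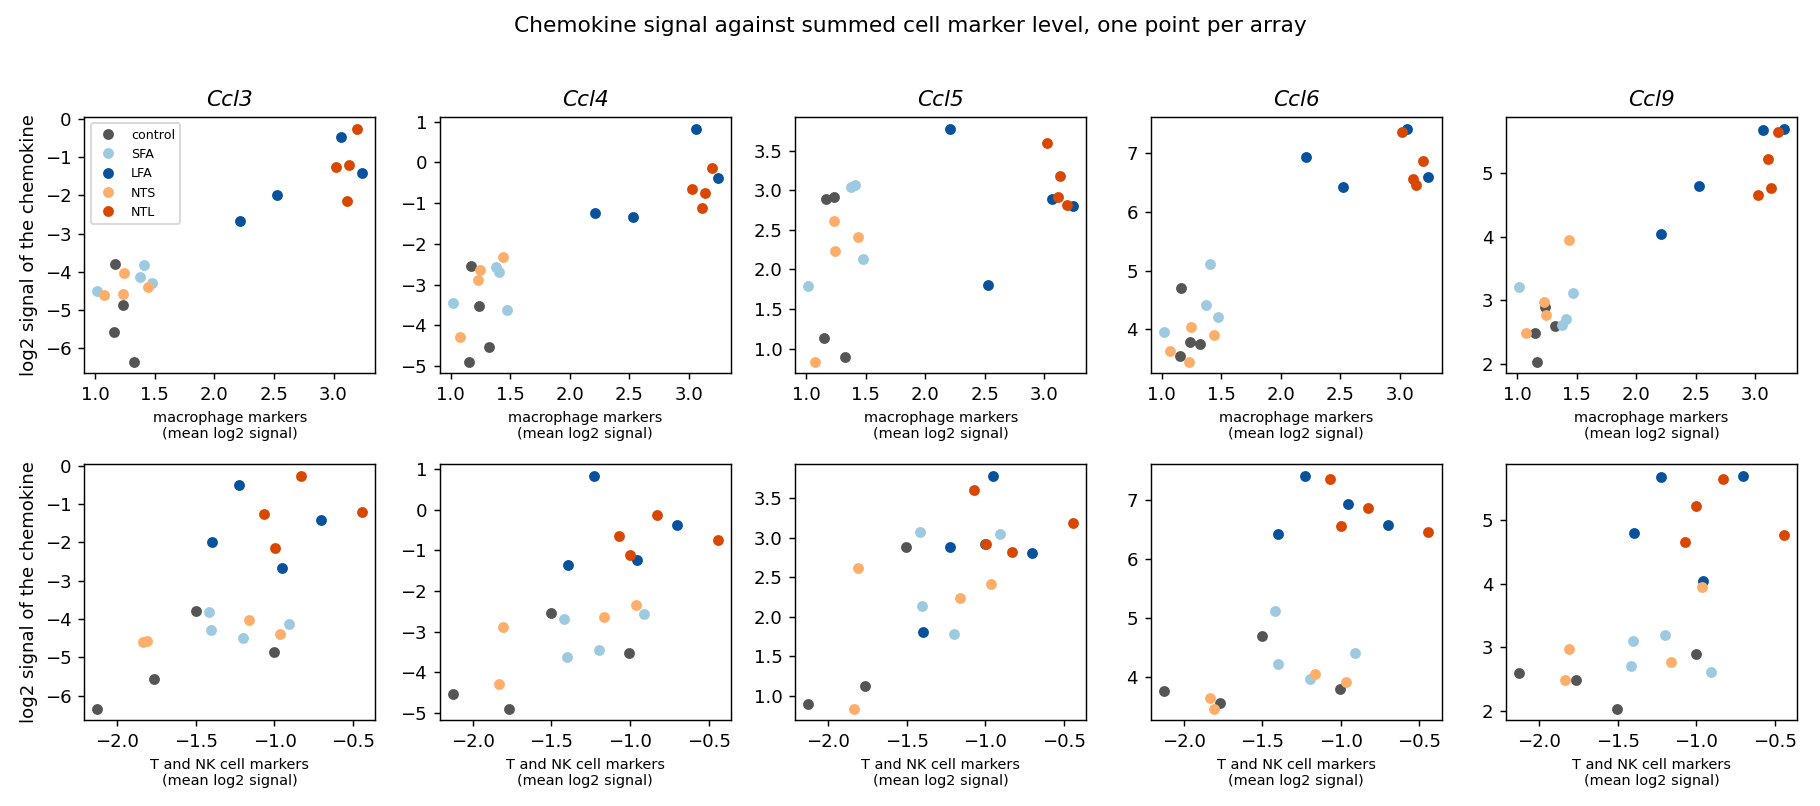
Each point is 1 array, with the log2 signal of the chemokine on the vertical axis and the mean log2 signal of the 15 macrophage markers (top) or the 14 T and NK cell markers (bottom) on the horizontal axis. The LFA and NTL arrays form a separate cloud at the upper right of the macrophage panels for Ccl3, Ccl4, Ccl6, and Ccl9, and for Ccl5 the groups are mixed in height.

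The 14 T and NK cell markers moved less. Gzmb, the cytotoxic granule protease, was called in LFA (1.85) and in NTL (1.96), Cd5 was called in NTL (1.71) and had 1.46 in LFA (adjusted p = 0.0656), and Prf1 had −0.58 and −0.30. Their mean log2 signal ran from −2.13 to −1.0 in control, −1.40 to −0.70 in LFA, and −1.07 to −0.44 in NTL, so the groups overlapped. Set against this mean, Ccl5 differed from control by 0.33 in LFA (exact permutation p = 0.514) and 0.41 in NTL (p = 0.429), and within groups it had r = 0.55 with it. Of the other lists, 1 of 9 granulocyte markers (Cxcr2) was called higher in LFA and 0 in NTL, 0 and 2 of 7 dendritic and B cell markers (Itgax and Flt3), 1 (Col3a1) and 4 (Col1a1, Col1a2, Col3a1, and Lum) of 8 fibroblast markers, 0 of 9 mesothelial markers in both, and 0 of 10 liver markers, which had medians of 2.57 and 2.58. Of 11 skeletal muscle markers, 2 fell in LFA (Acta1 and Myh7) and 3 in NTL (Myh1, Myh7, and Tnnt3). Of all 36911 probes, 1462 were called in LFA, 816 of them higher, and 2510 in NTL, 1343 of them higher. The muscle markers had a mean log2 signal of 7.93 to 8.33 in control, 7.47 to 7.87 in SFA, 7.20 to 8.40 in NTS, 6.81 to 7.28 in LFA, and 6.72 to 6.81 in NTL. SFA thus also lay below control. Whether the makeup of the tissue changed, and what part that had in the chemokine values, was not tested.

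Among the receptors, Ccr1, the receptor that Ccl3, Ccl5, Ccl6, and Ccl9 have in common, and its relative Ccr1l1 were dim. Neither was well above background on any control, SFA, or NTS array, Ccr1 was on 2 LFA and 4 NTL arrays, and Ccr1l1 on 3 and 4. In NTL, Ccr1 was at least 1.59-fold higher than in control (limma adjusted p = 0.00593) and Ccr1l1 at least 3.01-fold (adjusted p = 0.0018), bounds set against the dimmest probes that were well above background. Both probes passed the filter only through the long fiber arrays, so they had to be high there to be tested, and their p-values carry that choice. In LFA they had changes of 1.22 and 1.57 and were not called (adjusted p = 0.146 and 0.107), and neither was called between NTL and LFA, where the differences were 1.21 and 1.73 (adjusted p = 1 for both, unadjusted p = 0.0243 and 0.00676). Ccr3, which binds Ccl5 and eotaxins, had 0.05 in LFA and 0.39 in NTL. The decoys Ackr2 and Ackr1, which take up chemokines without signaling through G proteins and are named Ccbp2 and Darc in the files, had 0.19 and 0.97 in LFA and 0.38 and 0.68 in NTL, and Ccrl2 had 0.44 and 0.18. None of these 4 was called, although Ackr1 had an adjusted p of 0.0551 in LFA.

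**Figure D4:**
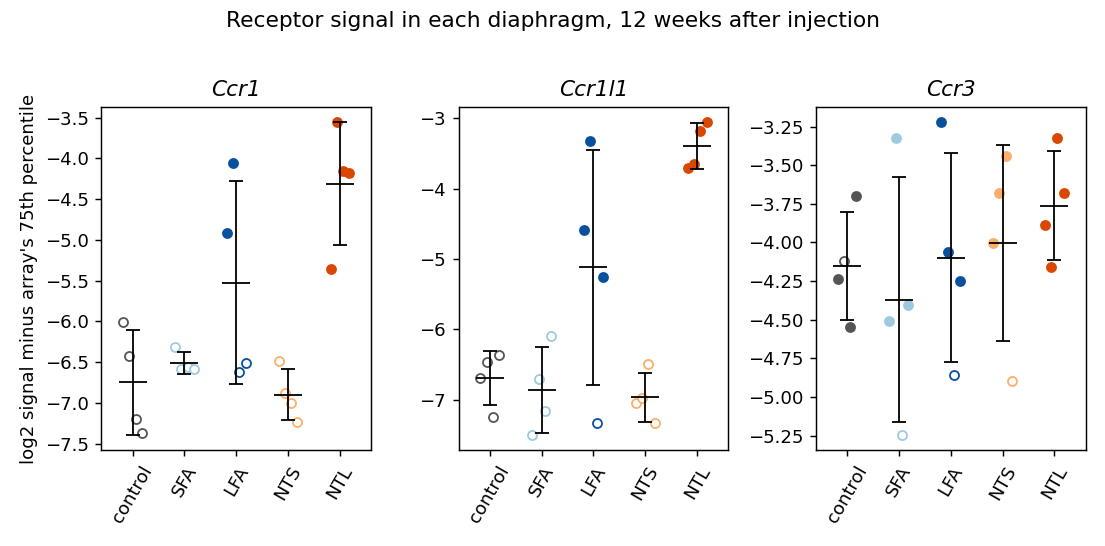
The log2 signal of Ccr1, Ccr1l1, and Ccr3 is plotted for the 4 arrays of each group, with the mean and SD in black and open circles where the probe was not well above background. Ccr1 and Ccr1l1 are high on all NTL and some LFA arrays, and the groups of Ccr3 overlap.

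Downstream of the receptors, 5 of 18 chemotaxis signaling genes were called higher in LFA (2.21% of all tested probes) and 7 in NTL (3.64%), and none lower. Those in LFA were Rgs1, Pik3cg, Pik3r5, Vav1, and Was. Rgs1, which ends G protein signaling after chemokine binding, changed by 3.38 and 4.08, and Pik3cg, the phosphoinositide kinase of leukocyte chemotaxis, by 1.78 and 2.24. Plcb2 had −0.92 and −0.77 and was not called. Of 6 cytokines listed as inducers of some, not all, of these chemokines, Il1b, Il4, and Csf2 were called in LFA, and Tnf, Il1b, Il13, and Csf2 in NTL. Il4 and Csf2 were at least 1.86-fold and 1.80-fold higher in LFA, and Csf2 at least 1.43-fold in NTL, since control arrays gave only a bound. Il1b changed by 3.74 in LFA and 3.38 in NTL, Il13 was at least 1.46-fold higher in NTL and had 1.20 in LFA (adjusted p = 0.0996), and Ifng had 0.99 and 0.61. No control array was well above background for Il4, Csf2, or Il13. These probes therefore passed the filter only through fiber arrays, and their p-values carry that choice. Of 10 NF-κB genes, 0 were called in LFA and 1 in NTL (Nfkbie, 1.26), and Tnfaip3 and Bcl3, both induced through NF-κB, had 1.16 and 1.23 in LFA and 1.19 and 1.04 in NTL, and Nfkbib had −0.77 and −0.87.

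In the first CC chemokine cluster of the same chromosome, Ccl2, Ccl7, Ccl8, and Ccl12 of 6 genes were called higher in both LFA and NTL. Ccl8 changed by 4.55 and 5.10, and Ccl12 by 2.72 and 3.34. Ccl11, the eosinophil attractant eotaxin, had −0.44 and −0.30 and was not called. The median over the 6 was 2.38 in LFA and 2.67 in NTL, beside 2.89 and 2.86 over the 5 genes of the second cluster, and each cluster held members that were not called.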

How the data were processed

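Diaphragm RNA of 20 mice was labeled with a single dye and hybridized to Agilent 60K mouse arrays, 1 array per mouse. The authors deposited the Feature Extraction 10.7.3.1 output of each array, whose processed signal is a background-subtracted intensity, and log2 values normalized in GeneSpring as a single mean per group, used only as an alternative without a test. Outlier spots (92 to 204 of 59305 per array) were left out, spots of a probe were averaged, and log2 intensity was set relative to the array's 75th percentile. Probes well above background on at least 4 of 20 arrays were tested with limma 3.58.1 in R 4.3.3, in a single model with a mean per group, and called where both thresholds were met (log2 change 1, adjusted p 0.05). A plus-minus value after a log2 change is its SE. The number of arrays limits the precision, and separate mice were the replicates. Pairs of genes and genes against marker means were compared by exact permutation tests.

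Gene names are those of the files; 21465 of 22765 probe accessions were found in the GRCm38.p6 table, used for names only. Promoter windows came from RefSeq, which matched 3 of the 5 genes, and Python 3.11.15 with matplotlib 3.10.9 read sequences and drew figures. Members, gene lists, and the rule for named genes (for the receptor list each gene, except 1 that is not reported here, and otherwise the 2 largest and the smallest mean of the LFA and NTL changes) were chosen with earlier results of these data known. Il4, Csf2, Tnf, Nfkbie, Ccl2, Ccl7, Pik3r5, Vav1, Was, Col1a2, Lum, and the muscle genes that fell make up small counts and were named after their values were seen. In simulated LFA against control arrays over 36759 probes, 27 of 100 probes changed by 1.5 and 78 of 100 changed by 3 (log2) were called, with 9 false calls. The simulation gave each probe independent noise and changed no other probes, so its rates need not hold for the real arrays. Alternatives covered background correction, scaling, filters, averaging by gene, the authors' table, slide and replicate blocks, fitting only the compared groups, the methods' ANOVA with unequal variances, no minimum change, and leaving out arrays. The ANOVA gave 1 p per probe over all 5 groups and was set beside the comparisons with control only. A probe 2-fold in SFA or NTS could thus pass through the long fiber groups. Dropping the minimum change could not end a call. Leaving out an array of a group not compared kept the change itself. The authors' table has no test, so a call could not be lost there. The liver covariate and leaving out 9 arrays rich in liver transcripts were added after seeing the data.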

Additional observations from a re-analysis of the deposited data

Results flagged for a closer look

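Among 125 sets of 4 values (chemokines, receptors, and list means in each group), 5 held a value that stood apart from the other 3 (4%), where chance gives about 1 in 20, and none of them was of the 5 chemokines. Ccr1 in SFA replicate 1 was at −6.31, above −6.59 to −6.56 in the others and was not well above background on any SFA array. Ackr1 in NTL replicate 4 was at −0.36, below 0.08 to 0.14. The mesothelial marker mean was 2.07 in LFA replicate 2, below 3.35 to 3.47, the fibroblast mean was 3.84 in NTS replicate 3, below 4.42 to 4.43, and the skeletal muscle mean was 8.33 in control replicate 2, above 7.93 to 7.96.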

How the results depend on the processing

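In 548 reruns the 16 called changes of the 4 genes kept their direction, 23 reruns lost the call, and 525 did not. No alternative with a test called Ccl5. The counts of called genes against control were 3 to 4 in LFA; in NTL and in NTL against NTS they were 3 to 5 by all alternatives but 1 (5 by fold alone in the authors' table, which has no test). Without the 9 arrays rich in liver transcripts the counts were 2 in NTL, 2 in NTL against NTS, and 0 in LFA against SFA, and over all probes the calls fell to 260 from 1462 in LFA, to 361 from 2510 in NTL, to 30 from 428 in LFA against SFA, and to 749 from 2796 in NTL against NTS, with 2 or 3 arrays left per group. The highest counts over all probes were 2977 in LFA and 629 in LFA against SFA without NTS replicates 3 and 4. NTL against NTS reached 5436 without NTS replicate 4, NTL against LFA 6 without LFA replicate 2, and NTS against SFA 1 with quantile scaling. ANOVA counts (180 in SFA, 194 in NTS) rest on a p over all 5 groups, not on short fibers alone. With the liver mean as a covariate the counts of called chemokines were the same. Fitting only LFA and SFA left 1 call, and leaving out single arrays gave 2 to 4 calls there. The other counts of called chemokines were 0 and stayed 0 under the alternatives run.

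Same-numbered arrays of different groups did not deviate together (r from −0.68 to 0.69 over 40 pairs, median −0.09), so the numbers were not taken to pair mice. With replicate number as a block the counts were 4 in LFA, 4 in NTL, 3 in LFA against SFA, and 4 in NTL against NTS, and with slide as a block 4, 4, 3, and 3; the lost call was Ccl4 (adjusted p = 0.0549 with the replicate block and 0.0874 with the slide block, LFA against SFA, and 0.0931 with the slide block, NTL against NTS). Scans coincided with slides and were not fitted again. Within slides, with 1 to 3 arrays a side and no test, Ccl3, Ccl4, Ccl6, and Ccl9 differed from control by 2.27 to 4.76 in LFA and by 2.13 to 3.95 in NTL, and Ccl5 by −0.20 to 2.44 and by 0.29 to 0.91. The median change of all probes, −0.28 in LFA and −0.25 in NTL, became −0.08 and −0.09 with quantile scaling and −0.19 and −0.08 with the percentile over probes detected on all arrays. By the methods' ANOVA 4 of the 5 genes passed (Ccl5 had an adjusted p of 0.301, unadjusted 0.192), as did 7.19% of tested probes. The within-array and marker tests gave 0 with normexp and quantile scaling too, under the same limit set by the smallest possible p. With an array left out, within slides, or in the authors' table they could not be tested at this threshold.

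Signs turned only for differences that were not called. NTL against LFA: Ccl3 −0.76 and Ccl9 −0.75 without the 9 arrays, Ccl6 0.058 with the percentile over probes detected on all arrays, 0.15 with quantile scaling, and 0.069 with the slide block. NTS against SFA: Ccl3 0.026 with normexp and 0.14 with the slide block, Ccl4 −0.033 with quantile scaling, −0.39 without NTS replicates 3 and 4, and −0.31 without the 9 arrays, Ccl9 −0.28 and −0.29 in those last settings. NTS against control: Ccl5 −0.42 and −0.70 in the same settings. The difference of length effects: Ccl3 −0.065 with the slide block and −0.49 without the 9 arrays, Ccl4 0.26 and Ccl9 0.30 without NTS replicates 3 and 4, Ccl9 0.16 with quantile scaling. With each array left out in turn, NTL against LFA ran from −0.39 to 0.33 for Ccl4, −0.026 to 0.63 for Ccl5, −0.21 to 0.17 for Ccl6, and −0.32 to 0.23 for Ccl9, NTS against SFA from −0.19 to 0.45 for Ccl4 and −0.17 to 0.32 for Ccl9, NTS against control from −0.29 to 0.47 for Ccl5 and −0.32 to 0.061 for Ccl6, LFA against SFA from −0.0095 to 0.65 for Ccl5, and the difference of length effects from −0.58 to 0.29 for Ccl4 and −0.46 to 0.19 for Ccl9. The cause of these moves was not tested.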
